A study of Homo sapiens with 6 samples.

Results

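The genes described here encode the apoptosome, caspases and the inhibitors that hold caspases in check. They are APAF1, CYCS, CASP9, CASP2, CASP6, XIAP, BIRC2 and DIABLO, chosen by gene symbol from the 20474 annotated genes of the expression tables, and each of the 8 symbols matched 1 row. The choice was made with the differences between the groups already known, so the values of these 8 genes are given as a description. No p-value of a member is printed. Where a member is said to pass a threshold, the count or share of all tested genes is given too, and the pass is no support. Expression was measured by sequencing of polyA RNA in HCT116, a human colorectal cancer cell line, within a study of tRNA-derived fragments. The siPOU2F1 group held 3 libraries of cells in which POU2F1, the gene of the octamer-binding factor OCT1, was knocked down by siRNA. The sicontrol group held 3 libraries of wild-type cells given a non-targeting siRNA. RNA was taken 48 h after transfection in both groups, and the cells carried no other stated alteration. A single cell line and a single time were sampled, with siRNA sequences not given in the sources used here. No label says that the libraries of a group are separate cultures, and the p-values therefore reflect the spread between libraries alone, which may be technical.

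In the mitochondrial pathway of apoptosis, cytochrome c leaves the mitochondrial intermembrane space and binds APAF1, which then assembles into the wheel-shaped apoptosome. The apoptosome recruits and activates the initiator caspase-9, which cleaves the effector caspases. XIAP blocks caspases directly, BIRC2 is a ubiquitin ligase of the same family, and DIABLO, released together with cytochrome c, binds these inhibitors and frees the caspases.

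Of the 8 genes, APAF1 was the 1 whose siPOU2F1 libraries all lay on the same side of the sicontrol libraries, below them, and its mean was 52.6% of the control mean. The other 7 overlapped between the groups. Over all tested genes the groups did not overlap for 23.4%, and 12.0% were lower without overlap. The promoter of APAF1 is the only member promoter that holds the octamer bound by POU2F1, and it is printed for that reason. The window runs from 250 bases before to 50 bases after the annotated start, on the plus strand of chromosome 12 (chr12:98645040-98645339, RefSeq, GRCh38.p14), and capitals mark the octamer.

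APAF1 promoter: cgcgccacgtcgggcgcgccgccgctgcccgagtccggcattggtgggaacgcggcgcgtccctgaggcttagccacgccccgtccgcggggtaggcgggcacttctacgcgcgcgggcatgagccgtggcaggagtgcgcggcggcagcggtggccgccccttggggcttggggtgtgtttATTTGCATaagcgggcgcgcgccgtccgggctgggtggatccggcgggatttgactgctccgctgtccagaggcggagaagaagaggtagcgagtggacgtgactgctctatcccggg

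The octamer ATGCAAAT was searched on both strands, and in the APAF1 window it stood in the reverse orientation (ATTTGCAT), with its first base at position -68 relative to the RefSeq start. GENCODE 29 places the start of APAF1 further upstream, at base 98645141, so that the octamer lies inside the gene in that annotation. RefSeq gave 16 such windows for the 8 genes, since several have more than 1 start, and 1 of the 16 held the octamer. Among all 35116 windows it was present in 1.77%, and 172 of the 9578 tested genes with a window held it. The median log2 fold change of those 172 genes was -0.02 against -0.01 over all tested genes, and 9.88% of them were lower without overlap of the groups, against 12.0% of all tested genes. The APAF1 window was 71.3% G and C, above the median of 58.7% over all windows. The 16 member windows ranged from 43% (CASP2) to 76% (CASP9), so this content is not particular to APAF1. A match of letters is a description and shows no binding.

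The tables give FPKM, fragments counted per length of transcript and per sequencing total, and each library had 11670 to 11853 annotated genes at 1 FPKM or more. Depth is unknown in absolute terms, and low values put the libraries at 0.779 to 0.973 of the depth of sicontrol replicate 1, with siPOU2F1 replicate 1 as the shallowest. POU2F1 itself averaged 1.76 ± 0.0984 FPKM in siPOU2F1 and 4.01 ± 0.359 FPKM in sicontrol (SD, n = 3 each; log2 fold change -0.99, SE 0.14, limma adjusted p = 0.0333), although its adjusted p lay between 0.114 and 0.222 when any 1 library other than siPOU2F1 replicate 3 was left out. That library stood apart: across genes its log2 values correlated at 0.977 with sicontrol replicate 2 but at 0.946 and 0.948 with siPOU2F1 replicates 1 and 2. The values of the 8 genes are therefore given with and without it. Its POU2F1 level was 1.73 FPKM, beside 1.87 and 1.69 FPKM in siPOU2F1 replicates 1 and 2 and 3.60 to 4.26 FPKM in sicontrol. Of 8 epithelial markers 7 reached a mean of 1 FPKM, the exception being CEACAM5, and their sum was higher in siPOU2F1 (3868 to 5493 FPKM) than in sicontrol (2845 to 3722 FPKM). KRT8 and KRT18 made up most of that sum, and KRT18 was the 1 of the 8 markers whose groups did not overlap. Of 9 markers of blood, connective tissue, vessel and liver cells, 3 (PTPRC, COL3A1 and DCN) were at 0 in all libraries and only COL1A1 reached 1 FPKM. The part of this marker difference in the results below was not tested. Fewer cells expressing a gene and less RNA per cell cannot be told apart in such bulk samples.

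**Figure D1:**
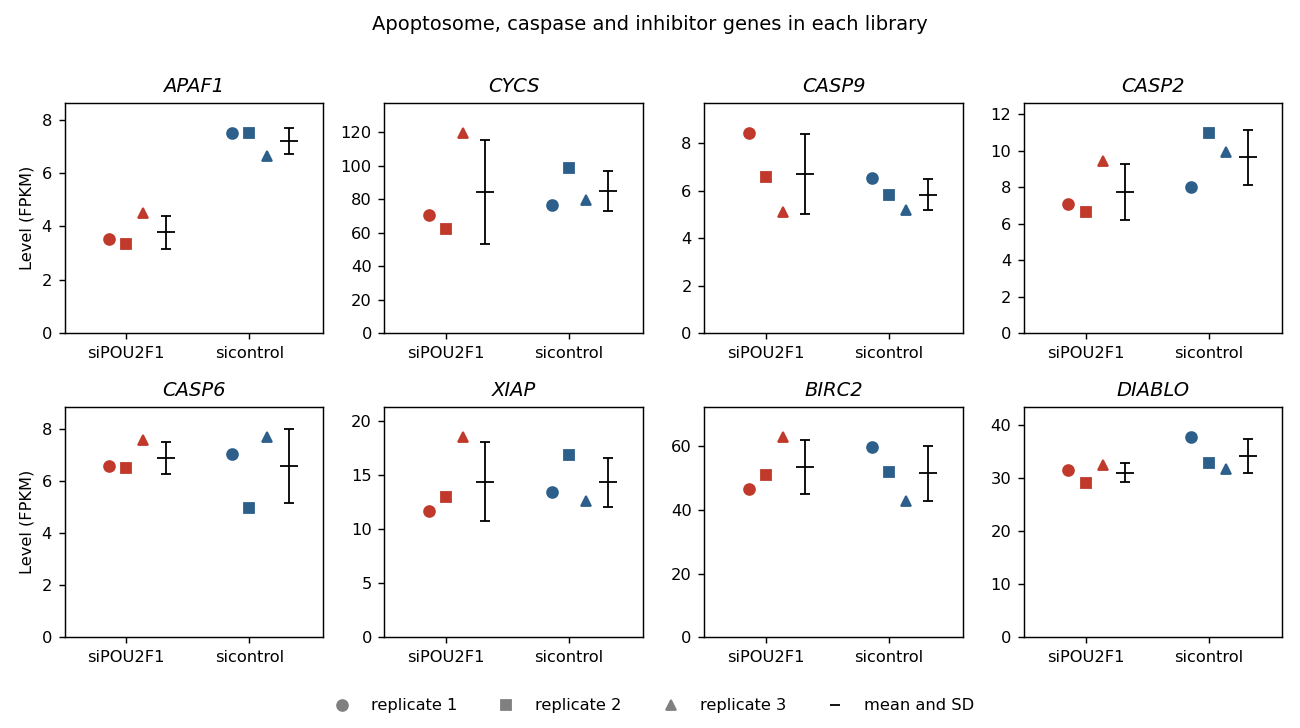
Level of each of the 8 genes in FPKM (y axes from 0) in the 3 siPOU2F1 libraries (red, left) and the 3 sicontrol libraries (blue, right), with marker shapes for replicate numbers and black bars for the mean and SD. APAF1 lies between 3.33 and 4.49 FPKM in siPOU2F1 and between 6.64 and 7.50 FPKM in sicontrol, while the groups overlap in the other 7 panels.

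APAF1, the scaffold of the apoptosome (ENSG00000120868; chromosome 12, 98645141 to 98735433, plus strand, GENCODE 29 on GRCh38), measured 3.55, 3.33 and 4.49 FPKM in siPOU2F1 replicates 1 to 3, against 7.48, 7.50 and 6.64 FPKM in sicontrol replicates 1 to 3. All 3 siPOU2F1 libraries were low, with siPOU2F1 replicate 3 the highest of them, and the groups did not overlap. The means were 3.79 ± 0.614 FPKM in siPOU2F1 and 7.21 ± 0.495 FPKM in sicontrol (SD, n = 3 each). The difference between the means exceeded both SDs, and the log2 fold change was -0.85 (SE 0.15). It was -0.97 (SE 0.12) without siPOU2F1 replicate 3 and lay between -0.97 and -0.78 with any 1 library left out. APAF1 shares 9.48% of its exonic bases with ANKS1B on the opposite strand, which was at or below 0.0102 FPKM on average in either group.

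CYCS, which encodes cytochrome c (ENSG00000172115; chromosome 7, 25120091 to 25125361, minus strand), was the most abundant of the 8. It measured 70.5, 62.4 and 119.6 FPKM in siPOU2F1 replicates 1 to 3, against 76.6, 98.5 and 79.8 FPKM in sicontrol replicates 1 to 3. The highest value of all 6 belonged to siPOU2F1 replicate 3 and the lowest pair to siPOU2F1 replicates 1 and 2, so the groups overlapped and their means nearly coincided, at 84.2 ± 30.9 FPKM in siPOU2F1 and 84.98 ± 11.8 FPKM in sicontrol (SD, n = 3 each). The log2 fold change was -0.06 (SE 0.25), and -0.35 (SE 0.13) without siPOU2F1 replicate 3. GENCODE names 40 pseudogenes of CYCS, 39 of them processed copies, so the assignment of its reads is uncertain.

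Cytochrome c and APAF1 act together, and FPKM is scaled by length, so their levels were set against each other within a library. The uncertain assignment of CYCS reads applies to this ratio too. The FPKM of CYCS was 19.9, 18.7 and 26.6 times that of APAF1 in siPOU2F1 replicates 1 to 3, against 10.2, 13.1 and 12.0 times in sicontrol replicates 1 to 3. These ratios did not overlap between the groups and were higher in every siPOU2F1 library. The CYCS means nearly coincided, so the ratio mostly restates the APAF1 values and is no separate result.

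CASP9, the initiator caspase recruited by APAF1 (ENSG00000132906; chromosome 1, 15490832 to 15526534, minus strand), measured 8.42, 6.57 and 5.08 FPKM in siPOU2F1 replicates 1 to 3 and 6.51, 5.79 and 5.19 FPKM in sicontrol replicates 1 to 3. Both the highest and the lowest of the 6 values were siPOU2F1 libraries, so the groups overlapped. The means were 6.69 ± 1.67 FPKM in siPOU2F1 and 5.83 ± 0.660 FPKM in sicontrol (SD, n = 3 each), and the log2 fold change was 0.16 (SE 0.20). Without siPOU2F1 replicate 3 it was 0.33 (SE 0.16), and with any 1 library left out it lay between -0.01 and 0.33. The ratio of APAF1 to CASP9 was 0.421, 0.507 and 0.884 in siPOU2F1 replicates 1 to 3, against 1.1502, 1.30 and 1.28 in sicontrol replicates 1 to 3. APAF1 was thus below CASP9 in all 3 siPOU2F1 libraries and above it in all 3 sicontrol libraries, on the FPKM scale. CASP9 itself overlapped between the groups, so this ratio too largely restates the APAF1 values.

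CASP2, an initiator caspase that is activated on the PIDDosome after DNA damage or failed cell division (ENSG00000106144; chromosome 7, 143288215 to 143307696, plus strand), measured 7.08, 6.68 and 9.47 FPKM in siPOU2F1 replicates 1 to 3. In sicontrol replicates 1 to 3 it measured 8.02, 10.99 and 9.92 FPKM. The siPOU2F1 replicates 1 and 2 lay below every sicontrol library and siPOU2F1 replicate 3 lay within their range. The log2 fold change was -0.30 (SE 0.18), and -0.45 (SE 0.15) without siPOU2F1 replicate 3. CASP2 was the second largest difference among the 8 genes after APAF1, and it kept its negative sign with any 1 library left out (-0.45 to -0.21).

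CASP6, an effector caspase that cleaves nuclear lamins (ENSG00000138794; chromosome 4, 109688622 to 109703583, minus strand), measured 6.58, 6.50 and 7.58 FPKM in siPOU2F1 replicates 1 to 3 and 7.03, 4.97 and 7.70 FPKM in sicontrol replicates 1 to 3. The siPOU2F1 libraries lay inside the range of the sicontrol libraries, which was set by the low sicontrol replicate 2. CASP6 had a log2 fold change of 0.08 (SE 0.18), and 0.02 (SE 0.19) without siPOU2F1 replicate 3. On the opposite strand MCUB overlaps 5.40% of its exonic bases and averaged 9.82 FPKM in siPOU2F1 and 12.7 FPKM in sicontrol, with a strand setting not given in the sources used here.

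XIAP, the inhibitor that binds caspases directly (ENSG00000101966; chromosome X, 123859724 to 123913979, plus strand), measured 11.6, 12.95 and 18.5 FPKM in siPOU2F1 replicates 1 to 3 and 13.4, 16.9 and 12.6 FPKM in sicontrol replicates 1 to 3. Its means were 14.4 ± 3.65 FPKM in siPOU2F1 and 14.3 ± 2.27 FPKM in sicontrol (SD, n = 3 each), with a log2 fold change of -0.01 (SE 0.20). As with CYCS, the highest value was siPOU2F1 replicate 3 and the next sicontrol replicate 2, and without siPOU2F1 replicate 3 the log2 fold change was -0.20 (SE 0.15). Its sign also changed with the scaling of the libraries (-0.030 to 0.011). XIAP has 3 named processed pseudogenes.

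BIRC2, the ubiquitin ligase also called cIAP1 (ENSG00000110330; chromosome 11, 102347211 to 102378670, plus strand), measured 46.6, 50.9 and 63.0 FPKM in siPOU2F1 replicates 1 to 3 and 59.9, 52.1 and 42.7 FPKM in sicontrol replicates 1 to 3. The groups covered nearly the same range. BIRC2 had a log2 fold change of 0.05 (SE 0.17), and -0.07 (SE 0.15) without siPOU2F1 replicate 3.

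DIABLO, the mitochondrial antagonist of these inhibitors (ENSG00000184047; chromosome 12, 122207663 to 122226568, minus strand), varied least, with its highest library at 1.30 times its lowest. It measured 31.6, 29.04 and 32.4 FPKM in siPOU2F1 replicates 1 to 3 and 37.8, 32.9 and 31.8 FPKM in sicontrol replicates 1 to 3. The siPOU2F1 values lay at the lower end of the sicontrol range or below it, and overlapped it through siPOU2F1 replicate 3. DIABLO had a log2 fold change of -0.14 (SE 0.11), and -0.17 (SE 0.11) without siPOU2F1 replicate 3. A separate Ensembl gene that GENCODE also names DIABLO shares 29.6% of its exonic bases on the same strand and averaged 0.839 FPKM in siPOU2F1 and 0.188 FPKM in sicontrol. It is listed in the tables without that symbol and is not counted among the 8. The summed FPKM of XIAP and BIRC2 was 1.84, 2.198 and 2.52 times that of DIABLO in siPOU2F1 replicates 1 to 3. In sicontrol replicates 1 to 3 it was 1.94, 2.09 and 1.74 times, so this ratio overlapped between the groups. The sum leaves out BIRC3, a paralog of BIRC2, which averaged 64.3 ± 11.2 FPKM in siPOU2F1 and 117.6 ± 29.7 FPKM in sicontrol (SD, n = 3 each). The ratio therefore does not describe the whole balance of inhibitor to antagonist.

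**Figure D2:**
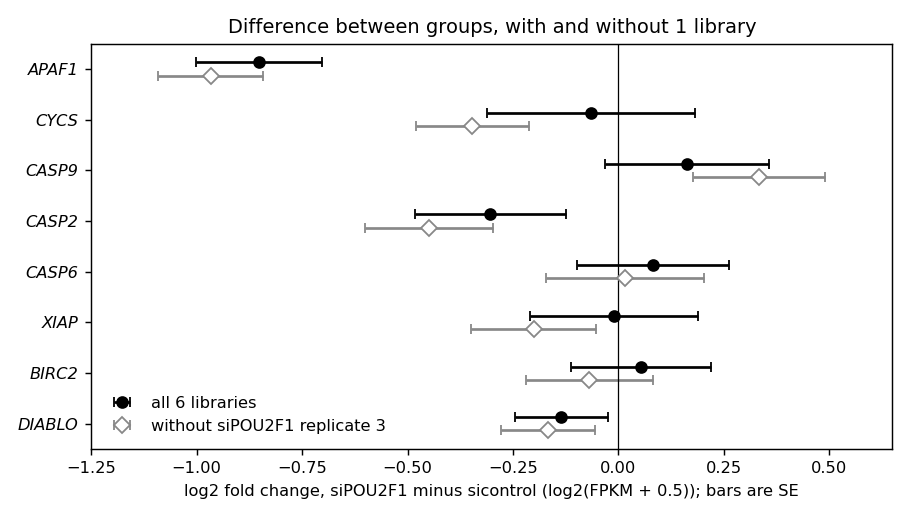
The log2 fold change of each gene (x axis, siPOU2F1 minus sicontrol on the log2(FPKM + 0.5) scale; bars are SE) with all 6 libraries (filled circles) and without siPOU2F1 replicate 3 (open diamonds). APAF1 lies at -0.85 and -0.97, and the other genes lie between -0.45 and 0.33.

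All 8 genes passed the filter of a mean of 1 FPKM over the 6 libraries. By limma on log2(FPKM + 0.5), fitted across 11831 genes, 0 of the 8 had an adjusted p under 0.05, where 1.24% of all tested genes did. At an unadjusted p under 0.05 there was 1 of the 8, APAF1, where 18.1% of all tested genes passed. The groups did not overlap for 1 of the 8, again APAF1, beside 23.4% of all tested genes. Without siPOU2F1 replicate 3, limma called APAF1 and none of the other 7, beside 25.3% of all tested genes. In that set of 5 libraries APAF1, CYCS, CASP2 and DIABLO lay below the sicontrol range, beside 34.9% of all tested genes, and CASP9 above it, beside 27.7% (62.6% in either direction). The median log2 fold change of the 8 was -0.04, against -0.01 over all tested genes. Since the genes were chosen with these differences known, nothing is read from these shares.

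The 8 genes covered a wide range of levels. Over the 6 libraries the mean was 84.6 ± 20.95 FPKM for CYCS, 52.5 ± 7.72 for BIRC2, 32.6 ± 2.88 for DIABLO, 14.3 ± 2.72 for XIAP and 8.69 ± 1.70 for CASP2 (SD over 6 libraries of both groups). CASP6 followed at 6.73 ± 0.992 FPKM, CASP9 at 6.26 ± 1.23 FPKM and APAF1 at 5.50 ± 1.94 FPKM. The order held within each of the 6 libraries from CYCS down to CASP6. The ranges of BIRC2 and DIABLO, of DIABLO and XIAP, and of XIAP and CASP2 did not overlap. CASP6 was above CASP9, and CASP9 above APAF1, in 3 of 6 libraries each, so these last genes were not ordered beyond their spread.

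Centred on its own mean, each gene showed which libraries carried its variation. The profiles of CYCS and XIAP resembled each other: siPOU2F1 replicate 3 was the highest library for both (0.53 and 0.38 above the mean on the log2 scale) and sicontrol replicate 2 the second (0.25 in each). CASP2 was also above its mean in these 2 libraries, by 0.14 and 0.34, whereas CASP9 was below its own, at -0.26 and -0.08. CASP6 had its single largest deviation in sicontrol replicate 2, at -0.39. APAF1 was the gene whose sign followed the siRNA in all 6 libraries.

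**Figure D3:**
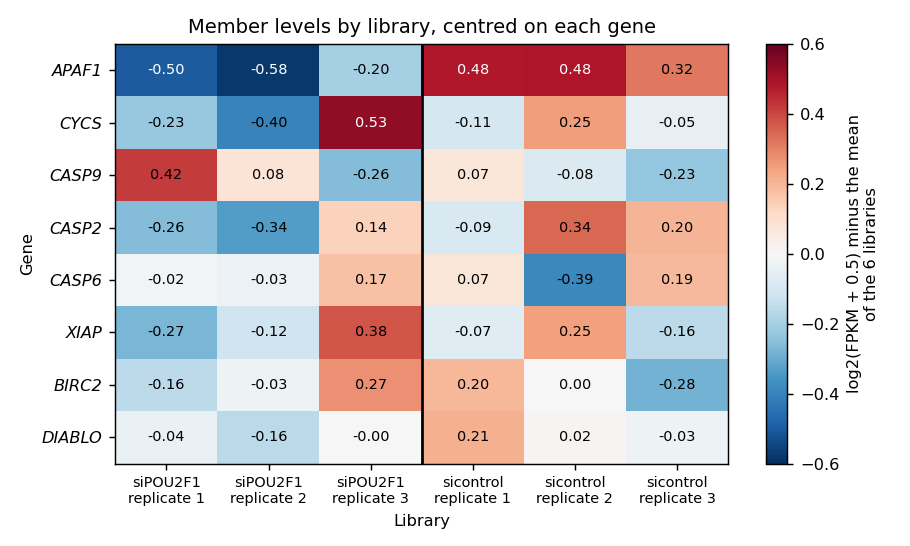
Level of each gene (rows) in each library (columns; siPOU2F1 left of the line, sicontrol right) as log2(FPKM + 0.5) minus the mean of the 6 libraries, with red above and blue below that mean. APAF1 is below its mean in all 3 siPOU2F1 libraries and above it in all 3 sicontrol libraries, and CYCS and XIAP are highest in siPOU2F1 replicate 3.

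The likest profiles among 8662 other genes averaging 5 FPKM or more were found by the root mean square difference of the centred log2 values over the 6 libraries. For APAF1 these were FNDC3A, a fibronectin type III domain protein, with a difference of 0.063, and EGFR, the epidermal growth factor receptor, with 0.066, where the APAF1 profile itself had a root mean square of 0.45. EGFR measured 26.7, 23.7 and 35.4 FPKM in siPOU2F1 replicates 1 to 3, against 56.4, 52.2 and 47.2 FPKM in sicontrol replicates 1 to 3. For CYCS they were UBTF, a factor of ribosomal RNA transcription, with 0.060, and TMEM199 with 0.061. CASP2 had the closest match of all, NRP2, a neuropilin co-receptor, with 0.017, and then CRACR2B with 0.033. XIAP was matched by AAR2, a factor of spliceosome assembly, with 0.019, and by RNF138, a ubiquitin ligase, with 0.033. CASP9 was nearest to ATP5MC3, a subunit of ATP synthase, with 0.050, and to ATF6B, a stress sensor of the endoplasmic reticulum, with 0.073. The likest profiles to CASP6 were FRA10AC1 with 0.070 and MRPS21, a mitochondrial ribosomal protein, with 0.072. BIRC2 was nearest to TLR2, a Toll-like receptor, with 0.055, and to TMEM263 with 0.060. DIABLO was nearest to SRP54, a subunit of the signal recognition particle, with 0.033, and to CEP63, a centrosomal protein, with 0.034. These genes share the libraries with the members, and the values describe likeness over 6 libraries only.

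Other genes of the pathway were taken from lists of apoptosome, caspase, inhibitor and substrate genes. Of 50 further genes, 43 were tested, and limma called 0 as higher and 0 as lower, beside 0.397% and 0.845% of all tested genes. At an unadjusted p under 0.05 there were 9 of the 43, beside 18.1% of all tested genes. The groups did not overlap for 3 that were higher and 8 that were lower, beside 11.3% and 12.0% of all tested genes, and the median log2 fold change of the 43 was -0.09. Without siPOU2F1 replicate 3 limma called 13 of them, beside 25.3% of all tested genes. The single lists below hold at most 12 tested genes. With 1.24% of all tested genes called, a count of 0 sets none of these lists apart.

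Of 3 other caspases tested none was called by limma, none passed at an unadjusted p under 0.05, and the groups overlapped for each. Over all tested genes 1.24% were called, 18.1% passed at that unadjusted p and 23.4% did not overlap. CASP8, the initiator of the death receptor pathway, measured 12.6, 12.8 and 23.8 FPKM in siPOU2F1 replicates 1 to 3 and 17.6, 18.8 and 17.2 FPKM in sicontrol replicates 1 to 3 (log2 fold change -0.18, SE 0.24, limma adjusted p = 0.686). As with CYCS, XIAP and BIRC2, siPOU2F1 replicate 3 was the highest library, and without it CASP8 was called at -0.48 (limma adjusted p = 0.0197). CASP4, an inflammatory caspase, was at 5.05 ± 0.423 FPKM in siPOU2F1 and 5.43 ± 0.481 FPKM in sicontrol (SD, n = 3 each; -0.09, limma adjusted p = 0.706). CASP10, a paralog of CASP8, had a log2 fold change of -0.26 (SE 0.20, limma adjusted p = 0.503) at 1.36 ± 0.320 FPKM in siPOU2F1 and 1.72 ± 0.311 FPKM in sicontrol (SD, n = 3 each). CASP1 reached at most 0.454 FPKM in any library, and CASP5 and CASP14 were listed at 0 in all 6.

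Of 3 other inhibitors tested none was called. BIRC3, the paralog of BIRC2 also called cIAP2, measured 57.6, 58.0 and 77.2 FPKM in siPOU2F1 replicates 1 to 3, against 151.9, 101.4 and 99.6 FPKM in sicontrol replicates 1 to 3. The groups did not overlap, and limma did not call the gene with all libraries (log2 fold change -0.85, SE 0.20, adjusted p = 0.103), but did without siPOU2F1 replicate 3 (-0.99, adjusted p = 0.0158). The FPKM of BIRC2 was 0.809, 0.876 and 0.816 times that of BIRC3 in siPOU2F1 replicates 1 to 3, against 0.394, 0.514 and 0.429 times in sicontrol replicates 1 to 3, with no overlap. BIRC2 itself overlapped between the groups, so this ratio largely restates the BIRC3 values. BIRC6, a giant ubiquitin-conjugating inhibitor, was at 6.94 ± 0.371 FPKM in siPOU2F1 and 8.54 ± 0.664 FPKM in sicontrol (SD, n = 3 each). Its log2 fold change was -0.28 (limma adjusted p = 0.278), and its groups did not overlap either. Over all tested genes 12.0% were lower without overlap. BIRC5, or survivin, a mitotic protein of this family, was at 27.5 ± 1.54 FPKM in siPOU2F1 and 26.9 ± 0.605 FPKM in sicontrol (SD, n = 3 each; 0.03, limma adjusted p = 0.875). BIRC7 and NAIP reached at most 0.531 FPKM in any library.

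**Figure D4:**
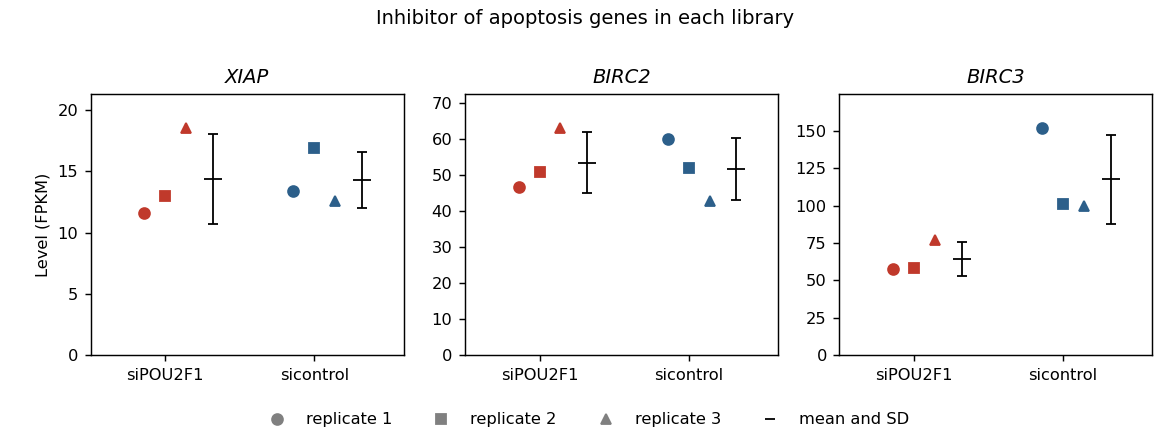
Levels in FPKM (y axes from 0) of the inhibitors XIAP, BIRC2 and BIRC3 in the 3 siPOU2F1 libraries (red, left) and the 3 sicontrol libraries (blue, right), with marker shapes for replicate numbers and black bars for the mean and SD. BIRC3 lies between 57.6 and 77.2 FPKM in siPOU2F1 and between 99.6 and 151.9 FPKM in sicontrol, while XIAP and BIRC2 overlap between the groups.

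BIRC2 and BIRC3 work with TRAF adaptors to degrade the kinase encoded by MAP3K14. None of the 8 tested antagonists and partners was called, and their median log2 fold change was -0.14. The adaptors TRAF2 (log2 fold change -0.19, limma adjusted p = 0.563) and TRAF3 (0.12, limma adjusted p = 0.522) overlapped between the groups. TRAF1, a TNF receptor adaptor, measured 3.57, 4.17 and 9.51 FPKM in siPOU2F1 replicates 1 to 3, against 23.5, 23.7 and 13.3 FPKM in sicontrol replicates 1 to 3 (log2 fold change -1.80, SE 0.38, limma adjusted p = 0.0777). MAP3K14, which encodes NIK, the kinase of the noncanonical NF-kB pathway, measured 7.80, 8.52 and 10.9 FPKM in siPOU2F1 replicates 1 to 3, against 21.8, 18.8 and 12.5 FPKM in sicontrol replicates 1 to 3 (-0.91, SE 0.22, limma adjusted p = 0.114). The groups did not overlap for either gene, and both were called by limma without siPOU2F1 replicate 3 (adjusted p = 0.00578 and 0.0214). SEPTIN4, whose ARTS isoform antagonises XIAP, varied from 4.201 to 19.8 FPKM and overlapped between the groups (0.59, SE 0.53, limma adjusted p = 0.550). XAF1, which encodes a XIAP-associated factor, was low, at 0.739 FPKM on average in siPOU2F1 and 0.885 FPKM in sicontrol.

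Of 5 further genes of the apoptosome and mitochondrial release none was called, and their median log2 fold change was -0.09. ENDOG, a mitochondrial nuclease released in apoptosis, was at 6.06 ± 0.674 FPKM in siPOU2F1 and 4.48 ± 0.178 FPKM in sicontrol (SD, n = 3 each). Its log2 fold change was 0.39 (limma adjusted p = 0.194) and its groups did not overlap, where 11.3% of all tested genes were higher without overlap. ENDOG shares 39.2% of its exonic bases with SPOUT1 on the opposite strand. HCCS, the lyase that attaches heme to cytochrome c, had -0.35 (limma adjusted p = 0.305), and -0.52 (0.0200) without siPOU2F1 replicate 3. AIFM2, a flavoprotein related to apoptosis-inducing factor, had -0.15 (limma adjusted p = 0.599). For the PIDDosome, the platform of CASP2, PIDD1 had -0.25 (0.439) and the adaptor CRADD 0.25 (0.453), both by limma.

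Of 12 regulators of the apoptosome none was called, and their median log2 fold change was 0.26. The 3 regulators with the largest log2 fold changes in size were heat shock genes of the HSP70 family, with a large spread. Of other heat shock genes, HSP90AA1 had 0.62 (SE 0.33, limma adjusted p = 0.350) and HSPB1 had 0.27 (limma adjusted p = 0.548). HSPA1A measured 11.8, 7.15 and 2.26 FPKM in siPOU2F1 replicates 1 to 3, against 1.22, 1.32 and 4.13 FPKM in sicontrol replicates 1 to 3 (log2 fold change 1.39, SE 0.61, limma adjusted p = 0.287). HSPA1B had 1.27 (SE 0.54, limma adjusted p = 0.279), and since it is a near-identical copy of HSPA1A the split of reads between them is uncertain. HSPA8 had 0.67 (SE 0.53, limma adjusted p = 0.501), with sicontrol replicate 3 at 866 FPKM beside 248 and 288 FPKM in the other sicontrol libraries. Both HSPA1 genes and HSP90AA1 were called without siPOU2F1 replicate 3 (limma adjusted p = 0.0242, 0.0216 and 0.0473), and HSPA8 was not.

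Among caspase substrates and genes of DNA fragmentation none of 12 was called with all libraries, and their median log2 fold change was 0.03. ROCK1, the kinase that drives membrane blebbing once cleaved, had the largest difference and measured 10.6, 11.8 and 13.2 FPKM in siPOU2F1 replicates 1 to 3, against 19.05, 20.04 and 15.7 FPKM in sicontrol replicates 1 to 3 (log2 fold change -0.60, SE 0.14, limma adjusted p = 0.104). LMNA, which encodes the lamins cleaved by caspase-6, had 0.34 (SE 0.16, limma adjusted p = 0.310) and overlapped between the groups. Without siPOU2F1 replicate 3 both were called (limma adjusted p = 0.0184 and 0.0333).

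**Figure D5:**
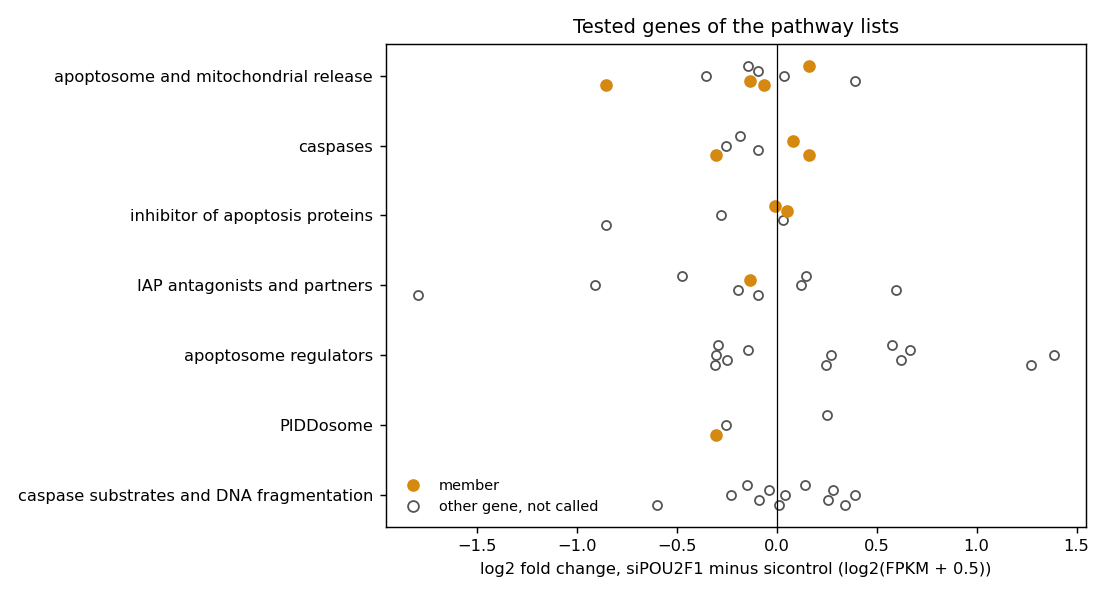
The log2 fold change (x axis, siPOU2F1 minus sicontrol on the log2(FPKM + 0.5) scale) of each tested gene in 7 lists (rows), with APAF1, CYCS, CASP9, CASP2, CASP6, XIAP, BIRC2 and DIABLO in orange and other genes as open circles. A gene that stands in more than 1 list is drawn in each, and vertical offsets only separate points.

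A pair of short words had been picked out of the 3′ UTRs of genes that were low in siPOU2F1 in these same libraries, and the members were searched for them. Of the 8, CYCS and CASP6 held AACTGCA once each, beside 12.4% of 11518 tested genes with a 3′ UTR, and XIAP held AGAATGA once, beside 14.9%. The 3′ UTRs of the other 5, that of APAF1 with 961 bases among them, held neither word. The 3 sites are shown to place the words in their transcripts. Each is given in the sense of the transcript as DNA letters, from the transcripts of GENCODE 29 on GRCh38, with the word in capitals, on chr7:25122601-25122625 (minus strand), chr4:109688750-109688774 (minus strand) and chrX:123911853-123911877 (plus strand), all in the last exon.

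CYCS: cagattgagAACTGCAgcatttatg

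CASP6: tttttaataAACTGCAgggttacac

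XIAP: cagagttatAGAATGAcagggctgg

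The words were chosen from lower expression in these libraries, so their presence or absence supports nothing about the members.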

How the data were processed

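Each library came as its own deposited table, with gene levels as FPKM computed by the authors, per the file headers, and no read counts. The submitters' processing notes name StringTie 2.1.2, HISAT2 2.0.4 and Bowtie2 2.2.5, and the build hg38, without roles; annotation, filters and strand setting were not given in the sources used here. Libraries were made from 2 µg of total RNA with a directional kit, per the labels' protocols. Values were used as deposited. The 11831 annotated genes averaging 1 FPKM or more were compared as log2(FPKM + 0.5) in limma 3.58.1 (R 4.3.3) with a trended variance and the group alone in the model. Adjustment was by Benjamini-Hochberg over these genes, with calls at adjusted p under 0.05. Fold changes are siPOU2F1 minus sicontrol and understate changes of low genes. The fit was tested on simulated data. The members and lists were chosen with earlier results of these data known. Genes named beside the members are all called list genes, the 3 tested genes of each list with the largest absolute log2 fold change, and the 2 likest profiles of each member. Listed genes under 1 FPKM are named as low, and HSP90AA1, HSPB1, TRAF2 and TRAF3 were added after their values were seen. Some genes of the lists are not reported here, and all counts over the lists are without them. Promoters came from RefSeq, gene positions and 3′ UTRs from GENCODE 29 (longest coding transcript, 3′ UTR of at least 20 bases). Identifiers of 20460 annotated genes matched the gene name table given. Relative depth is the commonest ratio of low values to those of sicontrol replicate 1 and rests on 12 to 23 genes per library. The alternatives were other pseudocounts, filters, scalings, library weights, no trend, a replicate block and each library left out. Python 3.11.15, numpy 2.4.6, pandas 2.3.3 and matplotlib 3.10.9 were used.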

Additional observations from a re-analysis of the deposited data

How the results depend on the processing

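Over 16 alternatives, 127 of 128 values of the 8 genes moved by less than the spread between libraries (1 SD within groups). The exception was DIABLO with library weights, at -0.28. This count is no evidence of stability, since many of the values could not move by 1 SD. The filters, the trend and the replicate block leave the log2 fold change unchanged, and leaving out 1 library cannot shift it that far. With 1 library left out, CYCS ranged from -0.35 to 0.12 and APAF1 from -0.97 to -0.78. With all libraries at equal weight 0 of the 8 genes, 0 other pathway genes and 147 of all tested genes were called (limma). APAF1 became the 1 called member with a filter at 5 FPKM, with median-of-ratios scaling and with quantile normalization. These settings called 193 of 8695, 151 of 11831 and 147 of 11831 tested genes in that order. Calls of a member are no support, since the members were chosen with their differences known. Without a filter on low values 72 genes were called and without the mean-variance trend 93. Library weights gave 5963 genes, 26 other pathway genes and 2 members, APAF1 and DIABLO. With any 1 library left out, the counts lay between 0 and 2990 for all genes, 0 and 13 for the other pathway genes, and 0 and 1 for the members, and the highest of each came without siPOU2F1 replicate 3. With the replicate number as a block 0 genes, 0 members and 0 other pathway genes were called, with 1208 genes at an unadjusted p under 0.05. The numbers were not taken to pair the libraries: deviations of same-numbered libraries from their group means correlated at 0.13, -0.54 and -0.51 across genes, and no siPOU2F1 library correlated most with the sicontrol library of its own number. BIRC5 lay between -0.0057 (without siPOU2F1 replicate 2) and 0.073 with 1 library left out. The causes were not tested. Depth is unknown in counts, so no counting error could be given.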

Other observations

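Some further pathway genes had groups that did not overlap. They fell outside the rule for named genes and were chosen after their values were seen, and none was called by limma with all libraries. PTMA, which encodes prothymosin alpha, an inhibitor of apoptosome assembly, measured 847, 894 and 635 FPKM in siPOU2F1 replicates 1 to 3, against 508, 473 and 600.3 FPKM in sicontrol replicates 1 to 3 (log2 fold change 0.58, limma adjusted p = 0.139). CSE1L, an exportin reported to favour apoptosome activity, was at 98.0 ± 3.94 FPKM in siPOU2F1 and 82.7 ± 4.11 FPKM in sicontrol (SD, n = 3 each; 0.24, limma adjusted p = 0.225). ANP32A, also reported to favour it, was at 55.7 ± 1.90 FPKM in siPOU2F1 and 66.3 ± 2.04 FPKM in sicontrol (SD, n = 3 each; -0.25, limma adjusted p = 0.210). GSPT1, a translation termination factor with a processed form that binds inhibitor of apoptosis proteins, was at 46.2 ± 5.45 FPKM in siPOU2F1 and 64.1 ± 1.06 FPKM in sicontrol (SD, n = 3 each; -0.47, limma adjusted p = 0.105). DFFA, the inhibitor of the caspase-activated DNase, was at 15.2 ± 0.579 FPKM in siPOU2F1 and 18.0 ± 2.35 FPKM in sicontrol (SD, n = 3 each; -0.23, limma adjusted p = 0.356). Among the other tested pathway genes with a 3′ UTR, 10 held either word and had a median log2 fold change of -0.36, with 8 negative. The 31 without either word had a median of 0.03. These medians carry no test, since the words came from lower expression in the same libraries.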
